A study of Mus musculus with 10 samples.

Results

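The genes described here are 9 genes that mark Sertoli cells, taken by name from the 25239 genes of the deposited count table: the transcription factors Sox9, Sox8, Wt1 and Gata4, the secreted signals Amh and Dhh, the hormone receptor Fshr, and Clu and Aard. The rule names them by their role and uses no threshold on a measured value, but they were chosen with earlier results of these data known. All 9 were found in the table, and all passed the filter on low counts. RNA was measured by RNA-seq in testis of C57BL/6 mice on postnatal day 4 (P4) and postnatal day 7 (P7). The mutant libraries (cKO, 3 at each stage) carry the genotype label Lsm7-flfl-stra8, and the wild-type libraries (WT, 2 at each stage) the label WT. No treatment is named, and whether WT animals carry any of the mutant alleles is not stated. Stra8, named in the mutant genotype, is a gene of germ cells and not of Sertoli cells, and the series sets out to compare WT with Lsm7-null germ cells. The samples are labelled as germ cell, but the protocol describes RNA of the testis with no sorting, and the values below are those of a mixed tissue.

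Sertoli cells are the somatic cells that line the seminiferous tubule and enclose and feed the germ cells. In the fetal testis Sry switches on Sox9, which with Sox8, Wt1, Gata4 and Nr5a1 drives Amh, the hormone that removes the Müllerian duct. After birth Sertoli cells divide under follicle-stimulating hormone, which acts through Fshr and cyclic AMP, and Amh declines as the cells mature. They also release Dhh, which signals through Ptch1 on Leydig and peritubular cells.

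Totals ran from 31.4 to 41.8 M reads in P4 cKO libraries and were 28.8 and 33.0 M in P4 WT libraries. At P7 they ran from 30.9 to 39.3 M in cKO libraries and were 28.9 and 30.0 M in WT libraries. Counts of the P7 WT pair agreed nearly within counting error (a chi-square of 1.98 per degree of freedom, where other pairs of a group gave 23.5 to 122.9). The pair was therefore entered as 1 sample of 9, with the variability of the other groups taken to hold for it. P7 cKO library 1 stood apart from the others of its group, with 117.3 and 122.9 per degree of freedom where libraries 2 and 3 gave 23.5. The targeted gene Lsm7 was read at 43.7 to 50.5 CPM (reads per 1 M, TMM-scaled) in cKO libraries at P4 against 25.7 and 36.2 CPM in WT. At P7 it was read at 20.3 to 45.3 CPM in cKO libraries against 32.8 CPM in both WT libraries. It did not pass the test at P4 (log2 0.58, edgeR adjusted p = 0.215) or at P7 (log2 -0.13, adjusted p = 0.835). No fall of Lsm7 was detectable in this tissue, so the cKO group stands here by its label alone. The ribosomal RNA precursor Rn45s, a sign of how much ribosomal RNA a library kept, took 0.316% to 0.649% of reads in P4 cKO libraries against 0.0782% and 0.0983% in P4 WT. At P7 it took 0.347% to 0.600% in cKO libraries against 0.143% in both WT libraries, and its part in the results below was not tested.

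Sox9 and Sox8 are close relatives, and a read that fits both could be counted for either. The coding sequences were compared in the GENCODE M21 transcripts (GRCm38), and the most alike 150 bases, where the DNA-binding domain is encoded, are shown here with the bases that differ in capitals. They are coding bases 304 to 453 of Sox9 (chromosome 11, 112782210 to 112787757, 3 exons) and 286 to 435 of Sox8 (chromosome 17, 25565893 to 25570686, 3 exons).
Sox9: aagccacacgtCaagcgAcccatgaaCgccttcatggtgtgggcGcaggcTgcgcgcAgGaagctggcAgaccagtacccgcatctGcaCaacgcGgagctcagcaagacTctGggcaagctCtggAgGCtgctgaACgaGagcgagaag
Sox8: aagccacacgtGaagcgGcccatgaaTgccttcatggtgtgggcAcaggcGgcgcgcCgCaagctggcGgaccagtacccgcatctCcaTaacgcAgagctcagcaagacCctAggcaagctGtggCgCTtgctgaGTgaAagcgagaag
Of the 150 bases 130 were identical (86.7%). The longest run shared anywhere between both whole coding sequences was 23 bases, so that these genes differ at short spacing even where they are most alike. Their values lay on opposite sides of WT at P4, as given below.

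The Amh results changed with a joint correction for gene length and base composition, so a stretch of its coding sequence is set beside one of Fshr, each chosen to hold about the G and C share of its whole coding sequence, with G and C in capitals. The Amh stretch covers coding bases 268 to 387 (65.0% G or C), and the Fshr stretch coding bases 124 to 243 (47.5%).
Amh: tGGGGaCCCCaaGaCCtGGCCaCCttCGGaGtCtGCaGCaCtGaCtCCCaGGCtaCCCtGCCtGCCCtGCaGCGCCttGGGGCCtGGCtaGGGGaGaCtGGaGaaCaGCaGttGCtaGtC
Fshr: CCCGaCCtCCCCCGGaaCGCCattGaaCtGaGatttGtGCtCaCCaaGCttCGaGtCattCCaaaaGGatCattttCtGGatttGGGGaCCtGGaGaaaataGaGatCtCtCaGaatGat
Over all exons Amh (chromosome 10, 80805240 to 80807679, 5 exons) had 65.4% G and C, above 99.5% of the genes tested, and its exon length was above that of 24.7% of them. Length and base composition were not corrected apart. Fshr (chromosome 17, 88984952 to 89200675, 10 exons) had 46.6%, above 29.8% of them.

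Promoters were held for 3 of the 9 genes, Sox8, Fshr and Dhh, in RefSeq sequences of GRCm38.p6. The 250 bases before the start of transcription are shown for these 3 genes, by availability alone. Capitals mark 5 motifs searched on both strands: the E-box CACGTG, which binds upstream stimulatory factors, the SOX site AACAAT, the GATA site GATAA, the SF1 site AAGGTCA and the GC box GGGCGG. All 3 genes lie on the minus strand and are printed in the direction of transcription, from chr17:25570687-25570936 for Sox8, chr17:89200676-89200925 for Fshr and chr15:98898541-98898790 for Dhh.
Sox8: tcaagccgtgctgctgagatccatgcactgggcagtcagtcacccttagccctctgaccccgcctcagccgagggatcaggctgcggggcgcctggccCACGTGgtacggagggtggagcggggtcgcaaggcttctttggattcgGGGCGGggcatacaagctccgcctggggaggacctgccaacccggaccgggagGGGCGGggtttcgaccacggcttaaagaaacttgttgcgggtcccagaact
Fshr: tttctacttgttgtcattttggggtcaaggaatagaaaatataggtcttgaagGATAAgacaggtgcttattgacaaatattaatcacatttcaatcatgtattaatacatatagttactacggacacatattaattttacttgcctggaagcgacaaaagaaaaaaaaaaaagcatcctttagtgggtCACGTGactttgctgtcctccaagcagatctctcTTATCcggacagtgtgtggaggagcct
Dhh: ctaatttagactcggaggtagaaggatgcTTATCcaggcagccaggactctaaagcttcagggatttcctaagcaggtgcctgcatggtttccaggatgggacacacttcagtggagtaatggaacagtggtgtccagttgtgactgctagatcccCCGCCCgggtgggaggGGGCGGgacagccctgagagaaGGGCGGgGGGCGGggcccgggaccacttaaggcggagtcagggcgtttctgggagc
The E-box stood in the Sox8 and Fshr windows, and in 6.02% of 32851 RefSeq promoters of the same length. GATA letters stood in the Fshr window at 2 places and in the Dhh window at 1, and in 22.6% of all promoters. The GC box stood at 2 places before Sox8 and at 4 before Dhh, and in 32.7% of all promoters. The SOX and SF1 letters (9.42% and 4.08% of all promoters) were not in these windows. These are matches of letters, and binding was not measured. No base of any of the 9 genes' exons was shared with another row of the table, though Wt1os lies 19 bases from Wt1, Cerox1 125 bases from Sox8 and Sf3a2 318 bases from Amh.

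In cKO testis at P4, Sox9, Clu, Aard and Amh rose to 1.84 to 2.09 times their WT levels, and none of the 9 genes fell. At P7 Amh was again higher in cKO, while Sox9 was lower, on the other side of WT from P4. Counted by edgeR's quasi-likelihood test with Benjamini-Hochberg adjustment at 0.05, 4 of 9 genes rose at P4, where 4.84% of the 18419 genes tested rose, and 0 of 9 fell, where 4.13% fell. At P7, 1 of 9 rose, against 7.26% of all genes, and 1 of 9 fell, against 9.72%. The median log2 fold change of the 9 genes was 0.43 at P4 and -0.27 at P7, beside medians over all genes tested of 0.00 at P4 and 0.08 at P7. The cKO and WT libraries did not overlap for 5 genes with cKO higher at P4 (24.1% of all genes tested) and for 3 with cKO lower (25.6%). At P7 they did not overlap for 2 genes with cKO higher (33.4%) and for 5 with cKO lower (30.4%). In a mixed tissue, a change in the share of Sertoli cells and a change in RNA per Sertoli cell, in either direction, cannot be told apart.

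**Figure D1:**
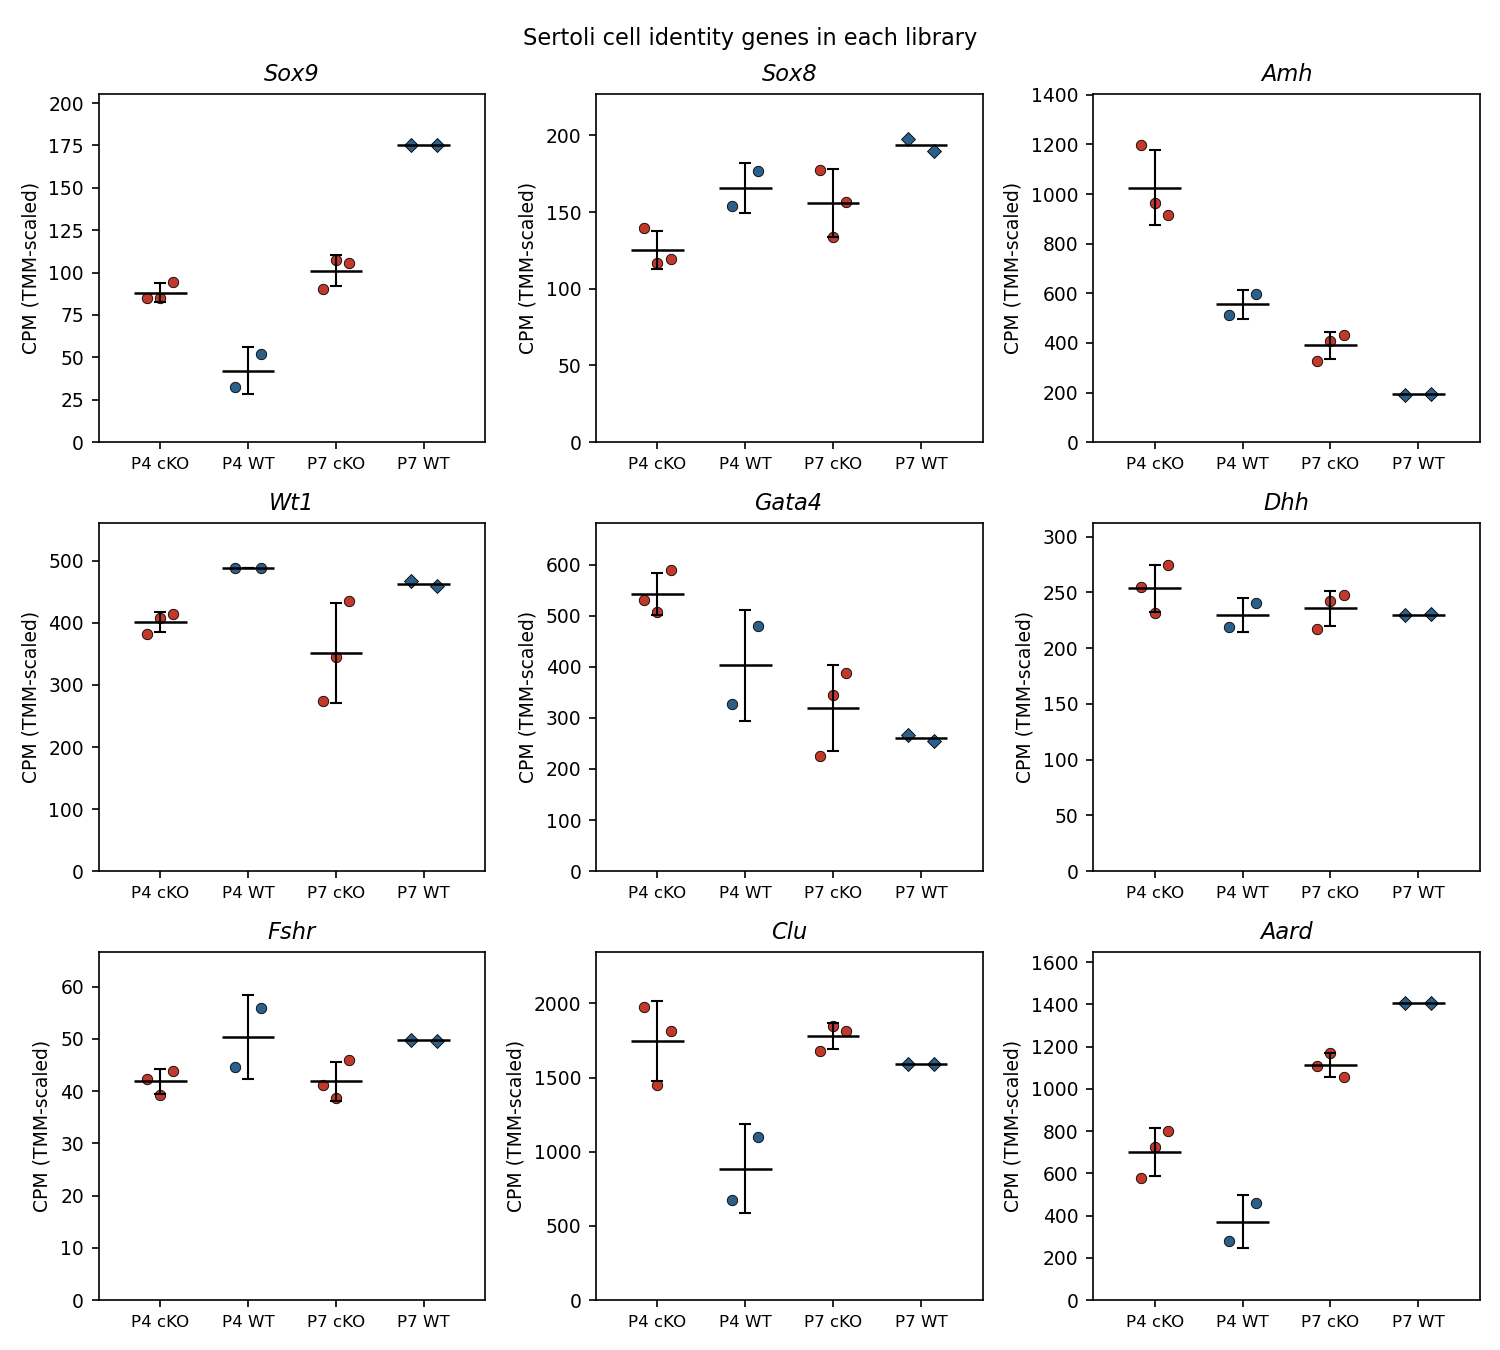
TMM-scaled CPM (y axes, linear from 0) of the 9 genes in each library of P4 cKO, P4 WT, P7 cKO and P7 WT testis (x axis); bars give the group mean and SD, and the diamonds of P7 WT, counted as 1 sample, carry no SD. Sox9 is higher in P4 cKO and lower in P7 cKO than in the WT libraries of the same stage, and Amh is higher in cKO at both.

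Sox9, the transcription factor that sets Sertoli cell fate, was read at 85.0, 85.2 and 94.5 CPM in P4 cKO libraries against 32.5 and 51.9 CPM in P4 WT. Every cKO library lay above both WT libraries, and P4 WT library 1 was the lowest. Sox9 rose 2.09-fold in cKO at P4 (log2 1.06, SE 0.21, edgeR adjusted p = 0.0195). P7 levels were 90.6, 107.6 and 105.5 CPM in cKO libraries against 175.3 and 175.4 CPM in WT. All 3 cKO libraries lay below WT, and Sox9 fell by 0.82 on the log2 scale (SE 0.24, edgeR adjusted p = 0.0402). Over development Sox9 rose in WT (log2 2.08 at P7 over P4, SE 0.26, edgeR adjusted p = 8.75e-04). In cKO it did not pass (log2 0.20, SE 0.18, edgeR adjusted p = 0.434). The P7 comparison and the P4 comparison differed by -1.88 on the log2 scale (SE 0.32), a genotype by stage interaction that did not pass over all genes (edgeR adjusted p = 0.0626). Without P4 WT library 1 the P4 value was 0.76 (adjusted p = 0.216), without P4 cKO library 2 it was 1.08 (0.0667), and without P4 cKO library 3 it was 1.00 (0.0720). The P7 call was lost when any of 4 cKO libraries was left out. These were library 1 (log2 -0.81, adjusted p = 0.0542) and library 2 (-0.81, 0.0650) of P4, and library 2 (-0.86, 0.0800) and library 3 (-0.85, 0.0617) of P7. It was also lost with library totals (-0.71, 0.0582) and when P7 was fitted without the P4 libraries (-0.85, 0.0776).

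Sox8, which can act in the place of Sox9 in the mouse, was read at 139.7, 116.6 and 119.6 CPM in P4 cKO libraries against 154.3 and 177.1 CPM in P4 WT. P7 levels of Sox8 were 177.5, 133.6 and 156.6 CPM in cKO libraries against 197.9 and 190.0 CPM in WT. The cKO libraries lay below WT at both stages, by differences that missed the threshold after adjustment over all genes (at P4 log2 -0.40, SE 0.18, edgeR adjusted p = 0.154; at P7 log2 -0.34, SE 0.22, adjusted p = 0.305). Reads of Sox9 per read of Sox8, a ratio that no library scale factor can move, were 0.608, 0.730 and 0.790 in P4 cKO libraries against 0.211 and 0.293 in P4 WT. At P7 they were 0.510, 0.806 and 0.673 in cKO libraries against 0.886 and 0.923 in WT. The ratio was thus higher in every cKO library at P4 and lower in every cKO library at P7. It is not corrected for gene length and base composition. The trend with these at P7 was -0.19 for genes like Sox9 and 0.60 for genes like Sox8 (log2, cKO over WT). With offsets for that trend the P7 differences were -0.63 for Sox9 and -0.94 for Sox8, so that the lower ratio at P7 did not hold. At P4 they were 1.12 and -0.54. The Sox9 to Sox8 ratios, and the others given here, were chosen after the values were seen and carry no test.

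Wt1, the zinc finger factor that Sertoli cells need to keep their identity (chromosome 2, 105126529 to 105173614), was read at 382.6, 407.1 and 414.4 CPM in P4 cKO libraries against 488.3 and 487.9 CPM in P4 WT. Wt1 levels at P7 were 274.3, 345.6 and 435.4 CPM in cKO libraries against 466.9 and 458.7 CPM in WT. Every cKO library lay below WT at both stages, with P7 cKO library 1 the lowest of all. The differences did not pass (log2 -0.28, SE 0.20, edgeR adjusted p = 0.358 at P4, and -0.42, SE 0.24, adjusted p = 0.252 at P7).

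Gata4, a factor that acts on the Amh promoter (chromosome 14, 63198914 to 63245271), was read at 529.8, 507.9 and 588.4 CPM in P4 cKO libraries against 326.4 and 479.9 CPM in P4 WT. Its P7 levels were 226.3, 344.8 and 388.1 CPM in cKO libraries against 266.1 and 255.5 CPM in WT. The genotypes did not overlap at P4 and did at P7, where cKO library 1 lay below WT and the others above. Neither difference passed (log2 0.43, SE 0.24, edgeR adjusted p = 0.264 at P4, and 0.27, SE 0.31, adjusted p = 0.576 at P7). Gata4 fell by 0.76 on the log2 scale at P7 against P4 in cKO (SE 0.22, edgeR adjusted p = 0.0218), a call that was lost without P4 cKO library 3 (-0.70, adjusted p = 0.0662) and with library totals (-0.58, adjusted p = 0.0536). In WT the stage difference of Gata4 was -0.61 (SE 0.33, edgeR adjusted p = 0.206). Gata4 and Wt1 stood apart at P4, with 1.38, 1.25 and 1.42 reads of Gata4 per read of Wt1 in cKO libraries against 0.668 and 0.983 in WT. At P7 the ratio was 0.825, 0.998 and 0.891 in cKO libraries against 0.570 and 0.557 in WT, and the genotypes did not overlap at either stage.

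Amh, the anti-Müllerian hormone, was read at 1198.6, 962.5 and 915.5 CPM in P4 cKO libraries against 514.4 and 597.6 CPM in P4 WT. It rose 1.84-fold (log2 0.88, SE 0.20, edgeR adjusted p = 0.0262), with every cKO library above both WT libraries. At P7 Amh was read at 327.9, 408.0 and 432.8 CPM in cKO libraries against 191.3 and 193.4 CPM in WT. It again rose, 1.99-fold (log2 0.99, SE 0.26, edgeR adjusted p = 0.0270), without overlap. Amh fell with age in both genotypes, by 1.40 on the log2 scale in cKO (SE 0.18, edgeR adjusted p = 2.50e-04) and by 1.51 in WT (SE 0.28, edgeR adjusted p = 0.00499). Once exon length and GC content entered as offsets, the difference in WT did not pass (log2 -0.68, edgeR adjusted p = 0.132), while in cKO it kept its call (log2 -1.39). The interaction without offsets was 0.11 (SE 0.31, edgeR adjusted p = 0.849). At P4 the call was lost without each of the 5 P4 libraries in turn, where the log2 value ran from 0.75 to 1.00 and the adjusted p from 0.0553 to 0.254. At P7 it was lost without cKO library 2 (0.96, adjusted p = 0.0713) or cKO library 3 (0.91, adjusted p = 0.0514), and when P7 was fitted without the P4 libraries (0.96, adjusted p = 0.0901).

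The Amh differences depended on a correction for gene length and base composition. Genes with the exon length and G and C share of Amh were higher in cKO than in WT by 0.51 on the log2 scale at P4 and by 1.36 at P7, as fitted over all genes. With offsets for that trend Amh was 0.36 higher in cKO at P4 (edgeR adjusted p = 0.275) and 0.35 lower at P7 (log2 -0.35, adjusted p = 0.592), so that the sign at P7 turned. The same trend amounted to -0.05 at P4 and -0.19 at P7 for genes like Sox9. With the offsets Sox9 kept its call at P4 (log2 1.12, adjusted p = 0.0370) and lost it at P7 (log2 -0.63, adjusted p = 0.248). Clu (0.80, adjusted p = 0.0762) and Aard (0.70, adjusted p = 0.0809) lost theirs at P4. Over all genes the fit with the offsets gave 535 calls at P4, where the fit without gave 1651, and 2 at P7, where the fit without gave 3129.

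**Figure D2:**
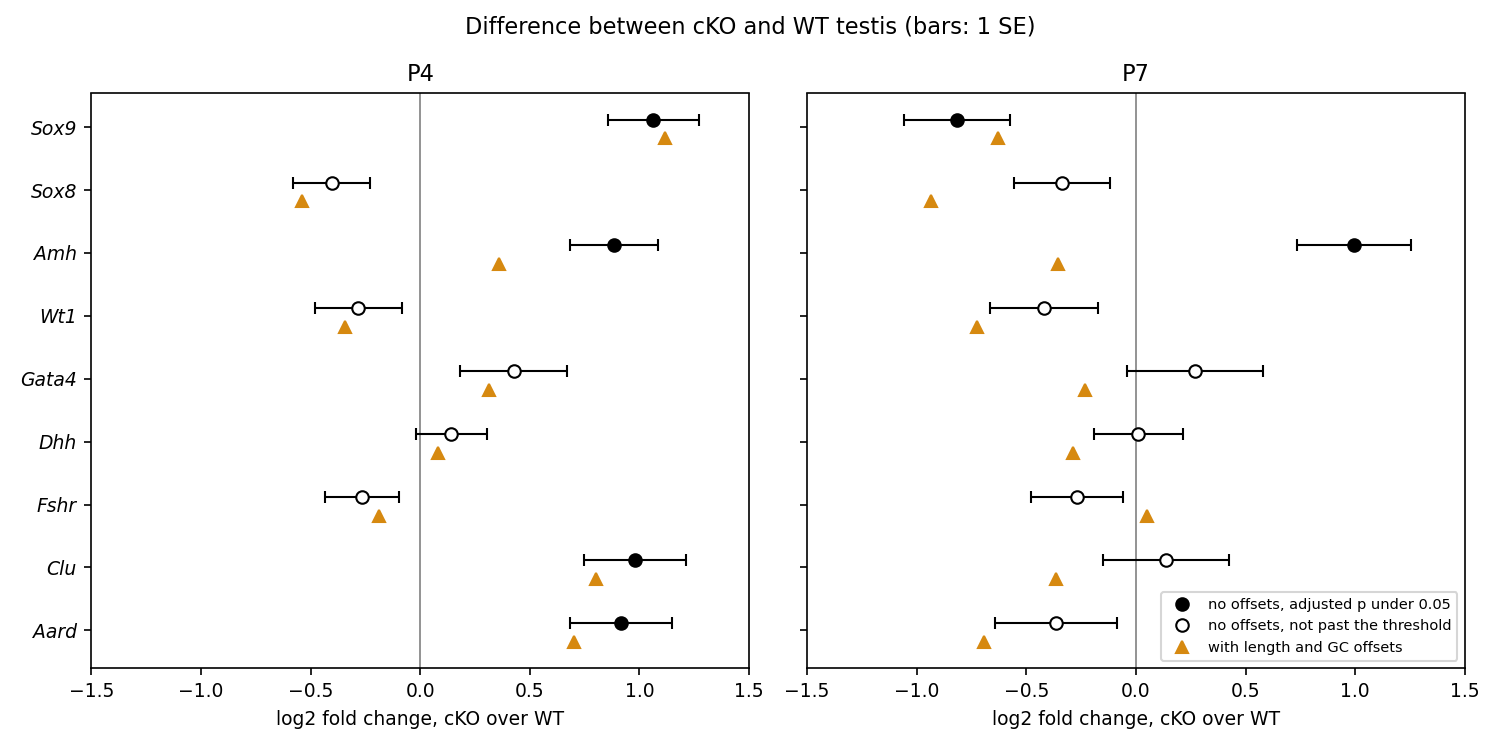
Log2 fold change of cKO over WT (x axis) for each gene (y axis) at P4 and P7; circles are the fit without offsets with bars of 1 SE, filled where the adjusted p is under 0.05, and triangles are the fit with length and GC offsets. At P7 the Amh triangle lies at -0.35, on the other side of 0 from its circle at 0.99, while at P4 the Sox9 triangle (1.12) lies beside its circle (1.06).

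Set against Sox9 within each library, Amh ran to 14.1, 11.3 and 9.69 reads per Sox9 read in P4 cKO libraries and 15.8 and 11.5 in P4 WT, which overlapped. At P7 the ratio was 3.62, 3.79 and 4.10 in cKO libraries against 1.09 and 1.10 in WT. The ratio is not corrected for the length and GC trend, which at P7 was 1.36 for genes like Amh and -0.19 for genes like Sox9 (log2, cKO over WT). With the offsets the P7 differences were -0.35 for Amh and -0.63 for Sox9.

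**Figure D3:**
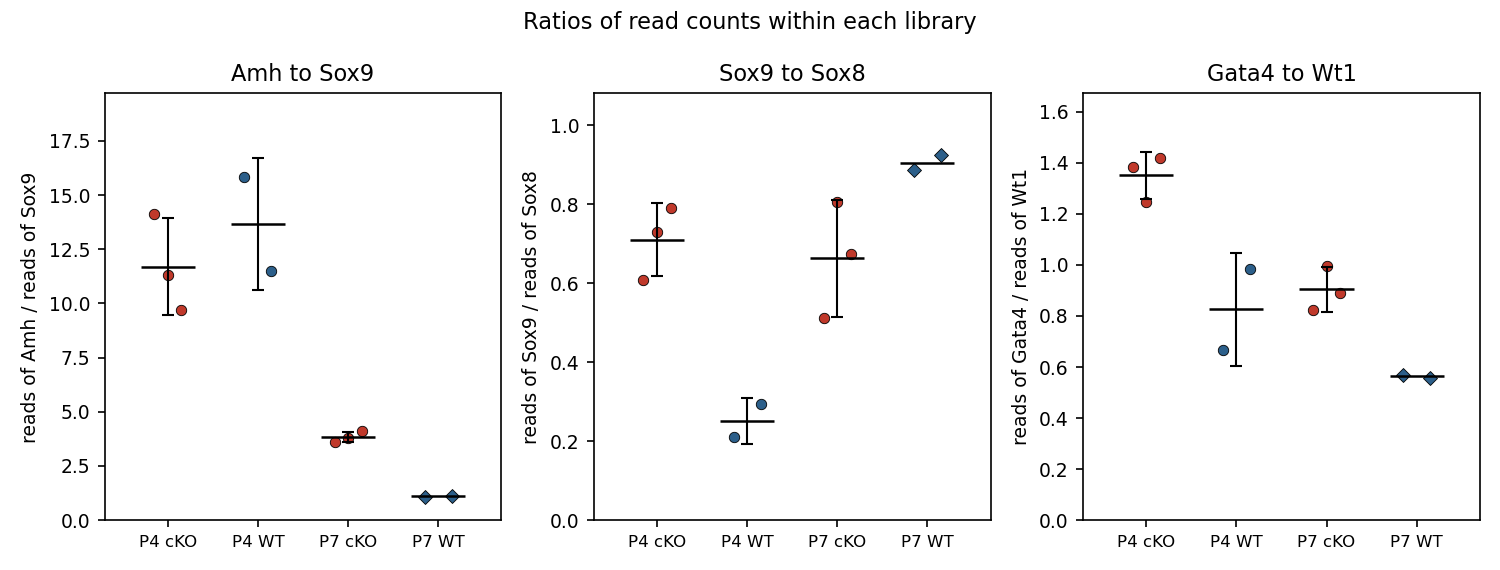
Reads of Amh per read of Sox9, of Sox9 per read of Sox8 and of Gata4 per read of Wt1 (y axes) in each library of the 4 groups (x axis), with group means and, except for P7 WT, SDs. Amh per Sox9 overlaps between genotypes at P4 and lies at 3.62 to 4.10 in P7 cKO against 1.09 and 1.10 in P7 WT, in reads not corrected for length or GC content.

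Dhh, the hedgehog ligand of Sertoli cells (chromosome 15, 98891155 to 98898540), had the smallest difference between genotypes of the 9 genes at each stage. It was read at 255.3, 232.0 and 274.2 CPM in P4 cKO libraries against 219.3 and 240.8 CPM in P4 WT. At P7 it was read at 217.6, 242.3 and 247.4 CPM in cKO libraries against 229.9 and 230.4 CPM in WT. The genotypes overlapped at both stages, where the log2 difference was 0.14 at P4, with SE 0.16 (edgeR adjusted p = 0.585), but 0.01 at P7, with SE 0.20 (edgeR adjusted p = 0.977).

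Fshr, the receptor of follicle-stimulating hormone, was read at 42.3, 39.3 and 43.9 CPM in P4 cKO libraries against 44.6 and 55.9 CPM in P4 WT. The P7 values were 41.1, 38.6 and 46.0 CPM in cKO libraries against 49.8 and 49.6 CPM in WT. All cKO libraries lay below WT at each stage, by log2 -0.27 both times, and neither difference passed (edgeR adjusted p = 0.314 with SE 0.17 at P4, adjusted p = 0.396 with SE 0.21 at P7).

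Clu, a secreted glycoprotein that Sertoli cells make in large amounts (chromosome 14, 65968483 to 65981548), was read at 1975.4, 1449.6 and 1816.4 CPM in P4 cKO libraries against 674.2 and 1098.1 CPM in P4 WT. It rose 1.97-fold at P4 (log2 0.98, SE 0.23, edgeR adjusted p = 0.0301), with no overlap. At P7 it was read at 1680.9, 1846.9 and 1816.0 CPM in cKO libraries against 1594.3 and 1592.9 CPM in WT. The cKO libraries lay just above WT, and the difference did not pass (log2 0.14, SE 0.29, edgeR adjusted p = 0.772). In WT the Clu value at P7 over P4 was 0.87 (SE 0.30, edgeR adjusted p = 0.0551), just short of the threshold. The interaction for Clu was -0.84 (SE 0.36, edgeR adjusted p = 0.176).

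Aard, a protein rich in alanine and arginine and known from Sertoli cells (chromosome 15, 52040107 to 52045722), was read at 578.2, 724.2 and 802.3 CPM in P4 cKO libraries against 282.4 and 460.7 CPM in P4 WT. It rose 1.89-fold (log2 0.92, SE 0.23, edgeR adjusted p = 0.0363), without overlap. At P7 it was read at 1108.0, 1171.6 and 1056.8 CPM in cKO libraries against 1406.3 and 1409.0 CPM in WT. Here every cKO library lay below WT, by a difference that did not pass (log2 -0.36, SE 0.28, edgeR adjusted p = 0.387). Aard rose with age in both genotypes, by log2 0.66 in cKO (SE 0.20, edgeR adjusted p = 0.0292) and by 1.95 in WT (SE 0.29, edgeR adjusted p = 0.00186). The interaction was -1.28 (SE 0.36, edgeR adjusted p = 0.0832) and did not pass. Neither Clu nor Aard passed at P4 without P4 WT library 1 (0.67, adjusted p = 0.293, and 0.61, adjusted p = 0.326), P4 cKO library 2 (1.09, 0.0676, and 0.89, 0.103) or P4 cKO library 3 (0.94, 0.102, and 0.80, 0.122). Clu also lost its call without P4 cKO library 1 (0.87, adjusted p = 0.0694). Aard lost its call at P4 without P7 cKO library 2 (0.92, adjusted p = 0.0510) or P7 cKO library 3 (0.92, adjusted p = 0.0513), and its stage call in cKO without library 1 (0.54, 0.0987) or 2 (0.69, 0.0783) of P4 or library 2 of P7 (0.63, 0.0811).

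Between the stages, 1 of the 9 genes rose in cKO (Aard; 14.5% of all genes tested rose) and 2 fell (Amh and Gata4; 14.7% fell). In WT 2 rose (Sox9 and Aard; 11.8%) and 1 fell (Amh; 9.97%). Sox8 had stage values of 0.32 in cKO (SE 0.16, edgeR adjusted p = 0.157) and 0.25 in WT (SE 0.24, adjusted p = 0.464). The genes not yet given ran from -0.19 to 0.03 in cKO (4 genes) and from -0.05 to 0.02 in WT (3 genes), and none passed. By edgeR none of the 9 passed the interaction test, nor did any of the 18419 genes (0.0%). At an unadjusted p under 0.05 there were 3 of the 9 and 4619 of all genes, limma-voom called 0 of all genes, and DESeq2 called 1720, of which 2 were Sox9 and Aard (adjusted p = 2.24e-04 and 0.0223). The 5 genes whose interaction is not given singly ran from -0.16 to 0.07. The stage comparisons share their libraries with the genotype comparisons, and their values are set side by side for that reason alone.

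Levels between genes were compared per kilobase of exon. At P4 Clu had the highest level, at 965 CPM per kb in cKO and 489 CPM per kb in WT, followed by Amh (602 in cKO, 326 in WT) and Aard (520 in cKO, 276 in WT). At P7 Clu led in cKO (984 CPM per kb), then Aard (825) and Amh (229). In P7 WT the order at the top was Aard (1044 CPM per kb), Clu (880), Wt1 (150) and Amh (113). These levels are not corrected for the length and GC trend between genotypes. At P7 that trend was 1.36 for genes like Amh and 0.30 for genes like Wt1 (log2, cKO over WT). With the offsets the P7 differences were -0.35 for Amh and -0.72 for Wt1. Wt1 (130 in P4 cKO, 158 in P4 WT) and Gata4 (159 in P4 cKO, 118 in P4 WT) held the middle, where the libraries of P4 cKO did not overlap between both genes and those of P7 cKO did. Sox8 and Dhh lay lower, at 41.8 and 59.9 CPM per kb in P4 cKO and 55.3 and 54.3 CPM per kb in P4 WT, and in P4 WT their libraries overlapped. Sox9 and Fshr were the lowest, at 21.3 and 17.7 CPM per kb in P4 cKO and 10.2 and 21.3 CPM per kb in P4 WT.

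**Figure D4:**
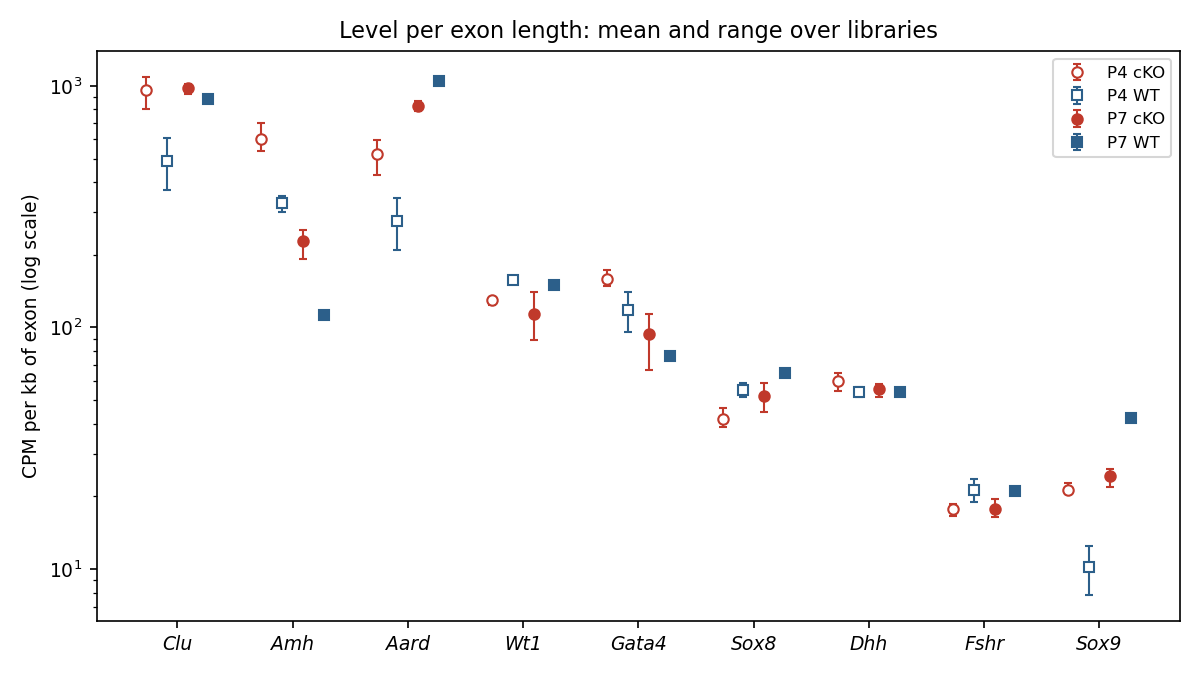
Mean CPM per kilobase of exon (y axis, log scale) of the 9 genes (x axis) in P4 cKO, P4 WT, P7 cKO and P7 WT testis; bars run over the lowest and highest library. Clu, Amh and Aard lie highest at P4, and Amh drops below Wt1 in P7 WT (113 against 150 CPM per kb) but not in P7 cKO (229 against 114). Levels are not corrected for the length and GC trend between genotypes, which at P7 was larger for genes like Amh than for genes like Wt1.

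Beyond the 9 genes, lists of the pathways around them were counted, against the shares of all genes given above. Of the 19 genes named from these and the marker lists at P4, none passed without P4 WT library 1 and 5 passed with the length and GC offsets, and of the 21 named at P7 none passed with the offsets. Of 24 other Sertoli cell genes, 3 rose and 0 fell at P4, and 3 rose and 3 fell at P7. Nr0b1, a nuclear receptor that represses steroidogenic genes, rose at P4 to 42.7, 51.2 and 54.8 CPM in cKO libraries against 25.4 and 27.4 CPM in WT (log2 0.91, SE 0.18, edgeR adjusted p = 0.0191). Tesc, a calcium-binding protein named tescalcin, rose at both stages, by log2 1.26 (SE 0.27) at the earlier (edgeR adjusted p = 0.0241) and 1.42 (SE 0.36) at the later (edgeR adjusted p = 0.0245). The iron carrier transferrin, Trf, rose at P4 (log2 0.89, SE 0.25, edgeR adjusted p = 0.0460). At P7 Kitl, the ligand of the Kit receptor on spermatogonia, was read at 225.7, 209.9 and 260.6 CPM in cKO libraries against 694.9 and 691.8 CPM in WT. Kitl fell by 1.60 on the log2 scale (SE 0.24, edgeR adjusted p = 0.00642), with all cKO libraries under all WT libraries. Nr5a1, the steroidogenic factor that works with Sox9, rose at P7 by 0.77 (SE 0.21, edgeR adjusted p = 0.0321).

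Of 14 tested genes of gonad determination, 1 rose at P4 (Nr0b1), and at P7 1 rose (Nr5a1) and 1 fell, Zfpm2, the partner protein of Gata4 (log2 -1.02, SE 0.20, edgeR adjusted p = 0.0108). Sry was listed with no read in any library. Of 7 genes of granulosa cells, the ovarian counterpart of Sertoli cells, 0 rose and 0 fell at either stage. Foxl2, which defines that cell type, stood at 0.475 to 0.925 CPM in P4 cKO libraries against 0.295 and 0.431 CPM in P4 WT. At P7 Foxl2 stood at 0.195 to 0.302 CPM in cKO libraries against 0.0698 and 0.268 CPM in WT.

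Of 11 genes that carry the Amh signal, 2 rose and 0 fell at P4, and 1 rose and 2 fell at P7. Amhr2, the receptor of Amh, rose at P4 to 127.3, 86.6 and 103.9 CPM in cKO libraries against 58.5 and 67.2 CPM in WT (log2 0.75, SE 0.19, edgeR adjusted p = 0.0369). Id3, a target of this signal, rose at P4 by 0.78 (SE 0.21, edgeR adjusted p = 0.0430), and Id1 rose at P7 by 0.79 (SE 0.24, adjusted p = 0.0430). The type I receptors Bmpr1a (log2 -1.27, SE 0.27, edgeR adjusted p = 0.0133) and Acvr1 (-0.70, SE 0.20, adjusted p = 0.0376) fell at P7.

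Of 13 genes of the pathway through which Dhh acts, none passed at P4, and at P7 1 rose and 1 fell. Both are used as readouts of hedgehog signalling, and they moved in opposite directions. Gli1, its transcription factor, rose to 174.2, 221.9 and 241.4 CPM in P7 cKO libraries against 95.2 and 94.8 CPM in P7 WT (log2 1.14, SE 0.34, edgeR adjusted p = 0.0430). Ptch1, the receptor, fell to 111.0, 112.7 and 128.7 CPM in P7 cKO libraries against 214.9 and 217.2 CPM in P7 WT (log2 -0.90, SE 0.22, edgeR adjusted p = 0.0202). Of 17 genes around Fshr and cyclic AMP, 2 rose and 0 fell at P4, and 0 rose and 6 fell at P7. Prkaca, the catalytic subunit of protein kinase A, rose at P4 (log2 0.69, SE 0.17, edgeR adjusted p = 0.0343), together with Trf. The 4 with the smallest p among those that fell at P7 were the regulatory subunit Prkar2b (-1.39, edgeR adjusted p = 0.00642), the transcription factor Creb1 (-1.17, 0.00895) and the phosphodiesterases Pde4b (-1.59, 0.0119) and Pde4d (-1.04, 0.0145).

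Some markers of the other cells of the testis differed between the genotypes and others did not. Their part in the values of the 9 genes was not tested. Summed over the list, 14 germ cell genes came to 373 to 391 CPM in P4 cKO libraries against 443 and 564 CPM in P4 WT. At P7 they came to 1367 to 1582 CPM in cKO libraries against 2236 and 2248 CPM in WT, with no overlap at either stage. The largest gaps at P7 were in Dazl (376 to 403 CPM in cKO libraries against 838 and 836 CPM in WT) and Tex15 (185 to 345 against 537 and 535 CPM). The median log2 value of the 14 genes at P7 was -0.13. At P4 0 of the 14 rose and 4 fell, Dppa4 (log2 -1.30), Mael (-0.99), Tdrd9 (-0.97) and Tex15 (-1.05), and at P7 0 rose and 2 fell, Tex15 (-1.15) and Dazl (-1.11, with a sign that turned under the length and GC offsets). Tex15 at P7 passed in 17 of 21 alternatives, and its value nearest to no difference was -0.055. The 9 Sertoli cell genes summed to 4524 to 5187 CPM in P4 cKO libraries against 2736 and 3650 CPM in P4 WT. At P7 they summed to 4144 to 4684 CPM in cKO libraries against 4555 and 4578 CPM in WT, and overlapped. In every library the 9 Sertoli cell genes thus held more reads than the 14 germ cell genes. Such sums depend on the genes listed and do not measure shares of cells.

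Of 8 Leydig cell genes 3 rose at P4, Fdx1 (log2 1.36), Star (1.24) and Insl3 (3.65), and 1 fell at P7, Lhcgr (-1.18). The Insl3 value (SE 0.85) rests on low levels, 13.4 to 15.8 CPM in P4 cKO libraries against 0.331 and 1.98 CPM in P4 WT. The sum of the 8 genes overlapped at both stages. It was 1213 to 1410 CPM in P4 cKO libraries against 1148 and 1391 CPM in P4 WT. At P7 it was 701 to 815 CPM in cKO libraries against 750 and 755 CPM in WT. The P4 sum hides opposite directions within the list, and whether each listed gene is particular to Leydig cells at these ages was not tested. Hsd17b3 stood at 419 to 481 CPM in P4 cKO libraries against 890 and 584 CPM in P4 WT. The median log2 value of the 8 genes at P4 was 1.26, and only Hsd17b3 was negative. Of 6 peritubular genes 3 rose at P4, Cnn1 (1.18), Tagln (1.13) and Des (0.75), and at P7 Des rose (0.92) and Mylk fell (-1.26). Their sum was 1518 to 1747 CPM in P4 cKO libraries against 1536 and 1559 CPM in P4 WT, and 1337 to 1473 CPM in P7 cKO libraries against 1659 and 1664 CPM in P7 WT. The lower sum at P7 came from Mylk, at 299 to 456 CPM in cKO libraries against 863 and 872 CPM in WT. All other genes of this list had positive log2 values at P7, from 0.17 (Tagln) to 0.92 (Des). Of 6 macrophage genes 3 rose at P4, Lyz2 (1.74), C1qa (1.10) and C1qb (0.97), and 1 fell at P7, Mrc1 (-1.24). Their sum was 70.3 to 119.9 CPM in P4 cKO libraries against 66.0 and 66.7 CPM in P4 WT, and 36.6 to 49.99 CPM in P7 cKO libraries against 61.2 and 65.1 CPM in P7 WT. Of the P7 sum Mrc1 held 12.1 to 16.7 CPM in cKO libraries against 36.5 and 33.8 CPM in WT. Of 6 endothelial genes none passed at P4 and 1 rose at P7, Tie1 (1.22). Their sum was 305 to 331 CPM in P4 cKO libraries against 258 and 264 CPM in P4 WT, and 106 to 155 CPM in P7 cKO libraries against 142 and 143 CPM in P7 WT. Of 6 erythroid genes the 4 globin genes were listed with no read in any library, and of the 2 tested Alas2 fell at P7 (-2.54). The erythroid sum was 4.37 to 19.5 CPM in P4 cKO libraries against 5.05 and 6.16 CPM in P4 WT, and 2.19 to 3.16 CPM in P7 cKO libraries against 15.6 and 16.6 CPM in P7 WT.

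The genes whose levels ran most like those of Sox9 over the 9 samples, by Pearson correlation of log2 CPM among 10636 genes, were Snap29 (r = 0.986), Rgl1 (0.969), Atg5 (0.965), Ube2h (0.960) and Tollip (0.960). Snap29 averaged 25.7 CPM in P4 cKO, 16.9 CPM in P4 WT, 28.8 CPM in P7 cKO and 40.7 CPM in P7 WT, in the same order as Sox9. Those most like Amh were Tacc2 (r = 0.988), Inf2 (0.984), Samd14, Soga1 and Lgals1 (0.983 each). Lgals1 averaged 682 CPM in P4 cKO, 383 CPM in P4 WT, 282 CPM in P7 cKO and 158 CPM in P7 WT, in the same order as Amh. The samples share their depth and base composition trends, and these correlations describe likeness of pattern over the samples only.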

How the data were processed

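Total RNA of testis was sequenced in 10 libraries, and the authors deposited raw read counts per gene, per the file header. Alignment with STAR 2.7.11a, trimming with Trim Galore 0.6.10, counting with featureCounts of Subread 2.0.6 and the build GRCm38 (mm10) are taken from the submitters' processing notes, which list names and versions only. Neither the strand setting nor the treatment of reads with several matches is known here. Of counts under 50, 67.8% to 80.0% were even, the pattern left when each read pair counts 2 times. The even share was 69.7% to 71.8% in P4 cKO libraries against 74.5% and 78.8% in P4 WT. At P7 it was 67.8% to 74.4% in cKO libraries against 79.7% and 80.0% in WT. The genotypes thus did not overlap in this share at either stage, and its part in the results was not tested. No label names separate animals, so p-values measure the spread between samples, which may be technical.

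Counts were scaled with TMM, filtered with filterByExpr (18419 genes kept) and tested with edgeR's robust quasi-likelihood F test (edgeR 4.0.16, R 4.3.3) on group means, two-sided, with Benjamini-Hochberg adjustment over all genes and 0.05 as threshold. SE is the log2 fold change over the square root of F, and the common biological coefficient of variation was 0.228. P7 WT libraries were summed as 1 sample. The script was tested on simulated data. Alternatives were RLE factors, library totals, no filter, minimum count 50, DESeq2 1.42.0, limma-voom (limma 3.58.1), the compared libraries alone, 10 libraries, a replicate block, length and GC offsets (natural spline, 5 degrees of freedom, per library) and each library left out.

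Named genes are the 9 genes, up to 4 called members per list and comparison by smallest p, the defining markers of other cell types, and the 5 genes most like Sox9 and Amh (mean log2 CPM of 3 or more). A gene that met this rule was left out of the text. The genes and lists were chosen with earlier results of these data known.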

Additional observations from a re-analysis of the deposited data

How the results depend on the processing

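The 9 genes kept their direction in most alternatives, while the counts of calls moved widely, and the cause was not tested unless given. With the length and GC offsets 1 of the 9 genes (Sox9) was called at P4 and 0 at P7, and all-gene calls were 535 at P4 and 2 at P7. Signs turned at P7 for Amh (-0.35), Gata4 (-0.23), Dhh (-0.29), Fshr (0.052), Clu (-0.36) and Dazl (0.020), and for the Amh interaction (-0.71). The Dhh difference, close to 0, also turned with library totals at P4 (-0.018), and at P7 with no filter (-0.010) or with the compared libraries alone (-0.021). With 1 library left out it ran from -0.024 to 0.065 at P7. The Amh interaction then ran from -0.00055 to 0.25, and Lsm7 at P7 from -0.53 to 0.10. Library totals gave 1 call among the 9 genes at P7 and 3 calls over all genes in the interaction. They shifted the median of all genes in cKO against WT to -0.16 at P4 (528 genes higher and 1544 lower, against 891 and 760) and to 0.19 at P7 (1744 higher and 1402 lower, against 1338 and 1791). For P7 against P4 they shifted it to -0.11 in WT and to 0.18 in cKO (3907 higher and 1818 lower, against 2663 and 2709). DESeq2 called 3020 genes at P4, and 1720 genes with 2 of the 9 in the interaction. With no filter the interaction held 431 genes and 1 of the 9 (Sox9). The compared libraries alone gave 3229 genes at P4, and 0 genes with 0 of the 9 at P7, where 4834 genes had an unadjusted p under 0.05. With 10 libraries as separate samples 2895 genes were called at P4, 6905 at P7, 7279 between stages in WT, and 3105 with 2 of the 9 in the interaction.

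Correlations of deviations from the group means ran from -0.26 to 0.47 within 13 same-numbered pairs and from -0.54 to 0.54 within 24 pairs of different number. In groups of 2 libraries the deviations mirror each other, so these values cannot decide whether the replicate numbers pair the samples. With a replicate block over 10 libraries 2732 genes were called at P4, 7438 at P7, 7812 with 5 of the 9 between stages in WT, and 4311 with 2 of the 9 in the interaction. Under the block Wt1 passed at P7 (-0.51, adjusted p = 0.0280), and Dhh at P7 was -0.016. Leaving out 1 library at a time, the 9 genes had 0 to 4 calls at P4, 0 to 2 at P7, 3 to 4 between stages in WT, 2 to 3 in cKO and 0 to 2 in the interaction. All-gene calls ran from 2 (without P4 WT library 1) to 4157 at P4, from 961 to 4921 at P7, from 1187 to 6315 in WT, from 3520 to 5569 in cKO and from 0 to 1455 in the interaction. Of the 19 list genes named at P4, 0 passed without WT library 1, cKO library 2 or cKO library 3 of that stage, and 5 with the offsets. Of the 21 named at P7, 10 passed without P7 cKO library 2 and 0 with the offsets. Without P4 WT library 1 and P7 cKO library 1 together, chosen after the data were seen, 2 of the 9 genes (Sox9 and Amh) were called at P4, 5965 genes at P7, and 676 genes with 1 of the 9 (Sox9) in the interaction. Depth did not limit these genes, whose lowest count was 981 reads (Sox9, P4 WT library 1). The small number of samples and the lone P7 WT sample limit the precision.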
